A study of Mus musculus with 2 samples.

Results

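Postsynaptic scaffold and synaptic adhesion genes were examined in striatal RNA of mice without and with the dopamine D2 receptor gene. The set was a list of 37 named genes, and a gene was measured through the array's probe sets that the platform annotation pairs with that gene alone. This gave 32 of the 37 genes, of 18193 genes on the array. For Shank2, Magi2, Ppp1r9b and Lrrc7 no such probe set was found in the annotation used here, and the probe sets of Nptxr were paired with a second gene as well. Shank1 was measured by 1 probe set that was called present on neither array (37.3 units in Drd2-/-, 40.0 units in wild type), so 31 genes were detected, all of them on both arrays.

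The Drd2-/- group and the wild-type group were 1 Affymetrix array each. Both held total RNA from the hand-dissected striatum of male C57BL/6 mice aged 2 months that carried no other named allele and had no treatment, and the labels do not say how many animals went into a sample or how the Drd2 allele was made. With 1 array per genotype no difference was tested, no value has a replicate error, and every count below is by size alone. Directions follow the sample labels. The authors' comparison table holds the same signals under opposite genotype names. The sample labels were followed because Drd2 was called absent on the array they give as Drd2-/- and present on the one they give as wild type.

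Excitatory synapses on striatal projection neurons carry a dense protein layer under the membrane. Scaffold proteins of the PSD-95, SAPAP and Shank families tie glutamate receptors to the actin skeleton, and adhesion proteins such as neuroligins and LRRTM proteins reach across the cleft to presynaptic neurexins. Gephyrin does the corresponding anchoring work at inhibitory synapses.

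Few transcripts of this layer were 1.5-fold apart between the genotypes when each gene was read from its brightest probe set. Of the 31 detected members, 1 was at least 1.5-fold higher in the Drd2-/- array, Cnksr2, and none was as much lower. Over all 12588 detected genes the shares past 1.5-fold were 9.17% upward and 3.38% downward. This split depends on the scaling: it was 6.18% upward and 7.51% downward after quantile normalization, and 6.74% and 6.25% after centring by signal. None of the members was 2-fold apart, where 3.12% of all detected genes were 2-fold higher and 0.818% 2-fold lower. The median log2 ratio of the members, Drd2-/- over wild type, was 0.06, with quartiles of -0.17 and 0.25. The median over all detected genes was -0.06. A ratio above 0 was read for 17 members and one below 0 for 14, and 40.4% of all detected genes were above 0. Differences of 1.5-fold were rarer among brighter genes. When the detected genes were split by signal into 4 equal groups from dim to bright, 28.3%, 11.1%, 7.79% and 2.99% were that far apart, and the groups held 1, 6, 5 and 19 of the members. Cnksr2 lay in the second group. The median log2 ratio fell from dim to bright as well, at 0.06, -0.05, -0.10 and -0.14. The members' median and their share above 0 were not matched for signal.

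**Figure D1:**
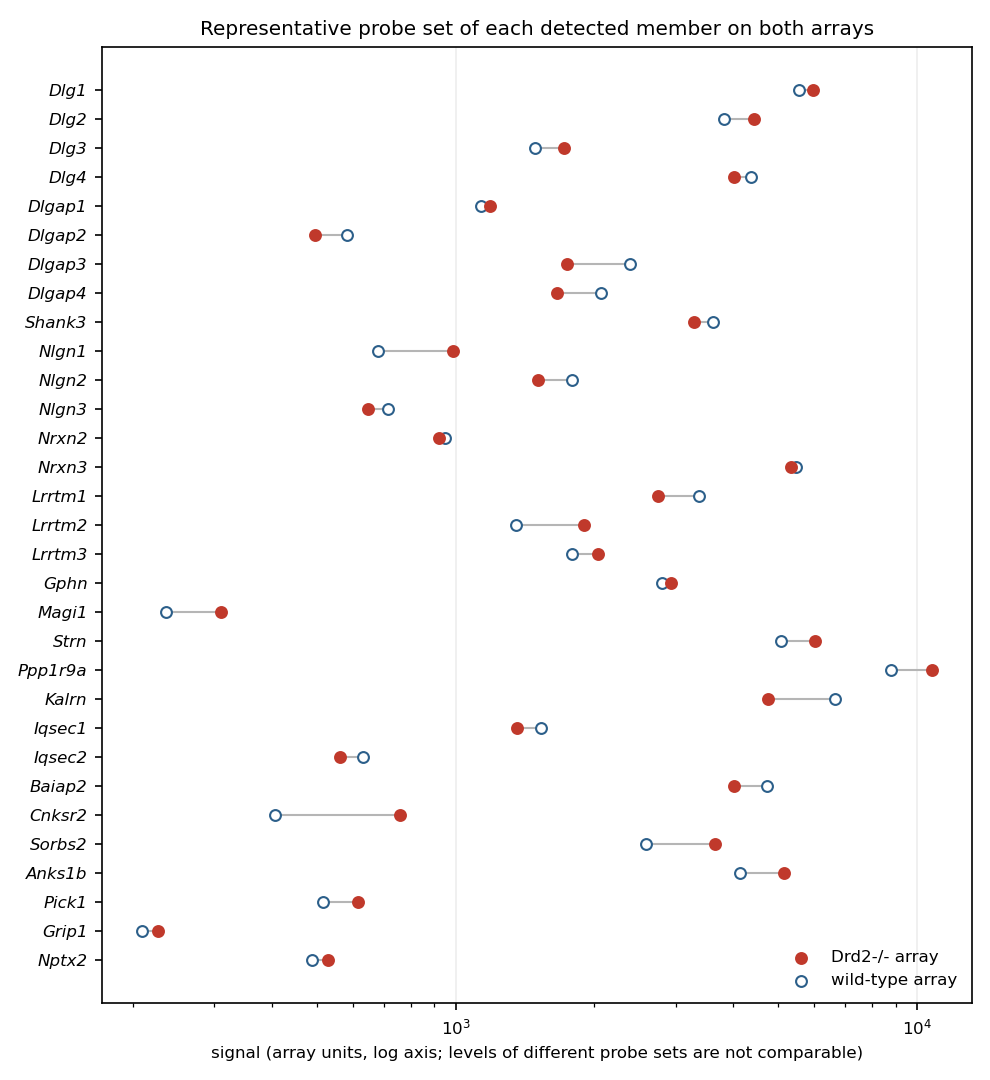
Signal of the representative probe set of the 31 detected members in the Drd2-/- array (filled points) and the wild-type array (open points), 1 array each, in array units on a log axis, with no error bars because there are no replicates. The points of most genes lie close together, and the widest gap is that of Cnksr2 (757.9 units in Drd2-/-, 406.7 units in wild type).

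Of all probe sets, 58.7% were called present in Drd2-/- and 57.9% in wild type. The deposited signals share 1 trimmed mean, while the median probe set read 132.6 units in Drd2-/- and 104.3 units in wild type. Drd2 itself read 27.4 units and absent in the Drd2-/- array, and 3234.8 units and present in the wild-type array. Striatal projection neuron markers were present throughout, 10 of 10 measured, with summed signals of 111099.4 units in Drd2-/- and 112934.5 units in wild type. Of these, 9 read below 0, at a median log2 ratio of -0.06 over the list, with Pdyn 1.77-fold lower in Drd2-/- (-0.82) and Pde10a alone above 0 (0.43). Of 11 measured markers of cortical excitatory neurons, 9 were detected, 4 of them at least 1.5-fold lower in Drd2-/- and none as much higher, at a median log2 ratio of -0.46. Their summed signal was 12087.1 units in Drd2-/- and 11812.6 units in wild type, since the bright members Nrgn and Lamp5 read 0.08 and 0.17, while the dim Neurod6, Tbr1 and Slc17a7 read -2.51, -2.12 and -1.62. Tbr1 was present in wild type alone, and the authors' deposited table has it at -1.1 (limits of -2.7 and 0.5), called decreased. Neurod6 and Slc17a7 are called decreased there too, at -2.5 (limits of -3.3 and -1.8) and -1.8 (-2.2 and -1.3). By their brightest probe sets, none of the 9 detected cortical markers is called increased. Medians of the other marker lists were -0.35 for oligodendrocytes (6 of 6 below 0), -0.40 for endothelial cells, -0.25 for microglia, -0.06 for astrocytes, 0.08 for thalamic and septal neurons (2 of 7 at least 1.5-fold higher and 2 as much lower) and 0.05 for choroid plexus, whose summed signal was 6358.8 units in Drd2-/- and 3926.8 units in wild type. Most of the choroid plexus sum was Ttr, at 5347.5 units in Drd2-/- and 2985.2 units in wild type (0.84). Folr1, Clic6 and Kl read 0.02, 0.05 and 0.00, and the dim Kcne2, present in Drd2-/- alone, 1.78. Many members are expressed in cortex and other brain tissue too, and the part of these shifts in the values below was not tested. In bulk tissue, fewer cells of a type and less RNA per cell cannot be told apart.

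The PSD-95 family, membrane-associated guanylate kinases whose PDZ domains hold receptor and neuroligin tails, showed small ratios in either direction. Dlg4, which encodes PSD-95 itself, read 4021.5 units in Drd2-/- and 4365.8 units in wild type by its brightest probe set, a log2 ratio of -0.12. Its second probe set read 2789.1 units in Drd2-/- and 3829.0 units in wild type (-0.46), and a dim further probe set 127.0 units in Drd2-/- and 103.4 units in wild type (0.30). The authors' deposited table holds log ratios and change calls, which are given here with their sign turned so that they follow the sample labels, and it calls the 2 brighter probe sets of Dlg4 decreased in Drd2-/-, at -0.4 (limits of -0.6 and -0.2) and -0.5 (-0.6 and -0.4). Such calls rest on the probes within 2 arrays and say nothing about the spread between animals. By their brightest probe sets, the authors' deposited table calls 3 of the 31 detected members decreased (9.68%) and 5 increased (16.1%). Over all detected genes it calls 5.67% decreased and 8.79% increased. Its limits lay below 0 for 10 members (32.3%) and above 0 for 9 (29.0%), against 22.6% and 13.3% over all detected genes. The part of signal level in these shares was not tested.

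The other 3 members of the family leaned the opposite way. Dlg1, encoding SAP97, read 5954.3 units in Drd2-/- and 5549.0 units in wild type (0.10), and 3109.3 against 3054.4 units by its second probe set (0.03). A dim probe set of Dlg1 was present in Drd2-/- at 89.6 units and absent in wild type at 22.0 units, 4.07-fold higher from the signals. The authors' deposited table has it at 1.5 on the log2 scale (limits of 0.7 and 2.3). A ratio against an absent reading is not a firm bound. Dlg2, encoding PSD-93, was higher by all 3 of its probe sets, at 0.21, 0.22 and 0.42. The brightest of these read 4434.0 units in Drd2-/- and 3828.7 units in wild type. Dlg3, encoding SAP102, read 1718.6 units in Drd2-/- and 1487.8 units in wild type (0.21), but -0.1 in the authors' deposited table, so its direction is not settled.

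SAPAP proteins link the guanylate kinase domain of PSD-95 to Shank. Of the 4 SAPAP genes, 3 read below 0 by their brightest probe sets and none was 1.5-fold apart. Dlgap3, the SAPAP gene best known in the striatum because mice lacking it groom to excess, read 1743.7 units in Drd2-/- and 2394.8 units in wild type, a log2 ratio of -0.46 from its only probe set. The authors' deposited table has it at -0.3, unchanged. Dlgap4 read 1656.6 units in Drd2-/- and 2068.9 units in wild type (-0.32), with its second probe set at -0.02, and Dlgap2 read 495.1 against 582.1 units (-0.23). Dlgap1 gave ratios on both sides of 0. Its 3 brighter probe sets read 0.06, -0.38 and -0.25, and its 3 dimmer ones, at 51.2 to 174.4 units in Drd2-/- and 30.4 to 121.9 units in wild type, read 0.52, 0.30 and 0.75. The first of these was present in Drd2-/- alone, and the authors' deposited table has it at 0.3 (limits of -0.4 and 0.9), unchanged. Shank3, the deeper scaffold that SAPAP proteins attach to, read 3292.9 units in Drd2-/- and 3607.3 units in wild type (-0.13).

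Of the neuroligins, postsynaptic partners of the neurexins, Nlgn1 read above 0 and the other 2 below. Nlgn1, found mainly at excitatory synapses, read 986.1 units in Drd2-/- and 680.3 units in wild type, 1.45-fold higher (log2 ratio 0.54), just under the fold counted. The authors' deposited table gives the same probe set 0.6 (limits of 0.2 and 0.9) and calls it increased. A second probe set of Nlgn1 was present on neither array. Nlgn2, the neuroligin of inhibitory synapses, read 1511.2 units in Drd2-/- and 1787.2 units in wild type (-0.24). Nlgn3 read 647.0 units in Drd2-/- and 712.2 units in wild type (-0.14), and all 3 of its probe sets lay between -0.19 and -0.14. Gphn, encoding gephyrin, read 2926.7 units in Drd2-/- and 2809.6 units in wild type (0.06), with -0.16 and -0.34 by its other probe sets, so that neither Nlgn2 nor Gphn was near 1.5-fold.

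The neurexin genes were nearly level by the signals of their brightest probe sets. Nrxn3 read 5326.3 units in Drd2-/- and 5468.8 units in wild type (-0.04), and Nrxn2 read 919.0 units in Drd2-/- and 948.3 units in wild type (-0.05). For Nrxn2 the authors' deposited table is lower, at -0.4 (limits of -0.6 and -0.3), though called unchanged, while centring by signal gives 0.00. The direction of Nrxn3 turns after quantile normalization (0.07). The next 2 probe sets of Nrxn3 read 0.18 and 0.08. Its 2 dimmest probe sets were higher. The first read 905.4 units and present in Drd2-/- against 376.5 units and absent in wild type, 2.40-fold from the signals. The second read 203.8 units in Drd2-/- against 120.7 units in wild type, 1.69-fold. For these the authors' deposited table gives 1.1 (limits of 0.5 and 1.8), called unchanged, and 0.7 (0.6 and 0.9), called increased. Neurexins act on the presynaptic side, and RNA in a striatal piece comes from cells whose bodies lie there.

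The 3 LRRTM genes, which encode leucine-rich repeat adhesion proteins of excitatory synapses, did not read alike. Lrrtm2 was higher in Drd2-/- by every probe set. It read 1900.6 units in Drd2-/- and 1349.0 units in wild type by the brightest (log2 ratio 0.49), 763.7 against 302.7 units by the second (1.34, a 2.52-fold difference) and 726.1 against 307.3 units by the third (1.24, 2.36-fold). All 3 were called increased in the authors' deposited table, at 0.4, 1.0 and 1.0. No other member had as many of its probe sets called. As a median of all probe sets detected for the gene, Lrrtm2 (1.24) and Sorbs2 (0.92) were past 1.5-fold and Cnksr2 (0.39) was not. Lrrtm1 read 2752.0 units in Drd2-/- and 3363.9 units in wild type (-0.29), with -0.35 and 0.04 by its other probe sets. All 3 lie below 0 in the authors' deposited table, the dimmest at -0.5 (limits of -0.6 and -0.4). Lrrtm3 read 2041.1 units in Drd2-/- and 1791.5 units in wild type (0.19), with -0.04 and 0.18 by the next 2 probe sets and 1.11 by the dimmest (788.3 against 365.4 units), which the authors' deposited table calls increased at 1.1.

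**Figure D2:**
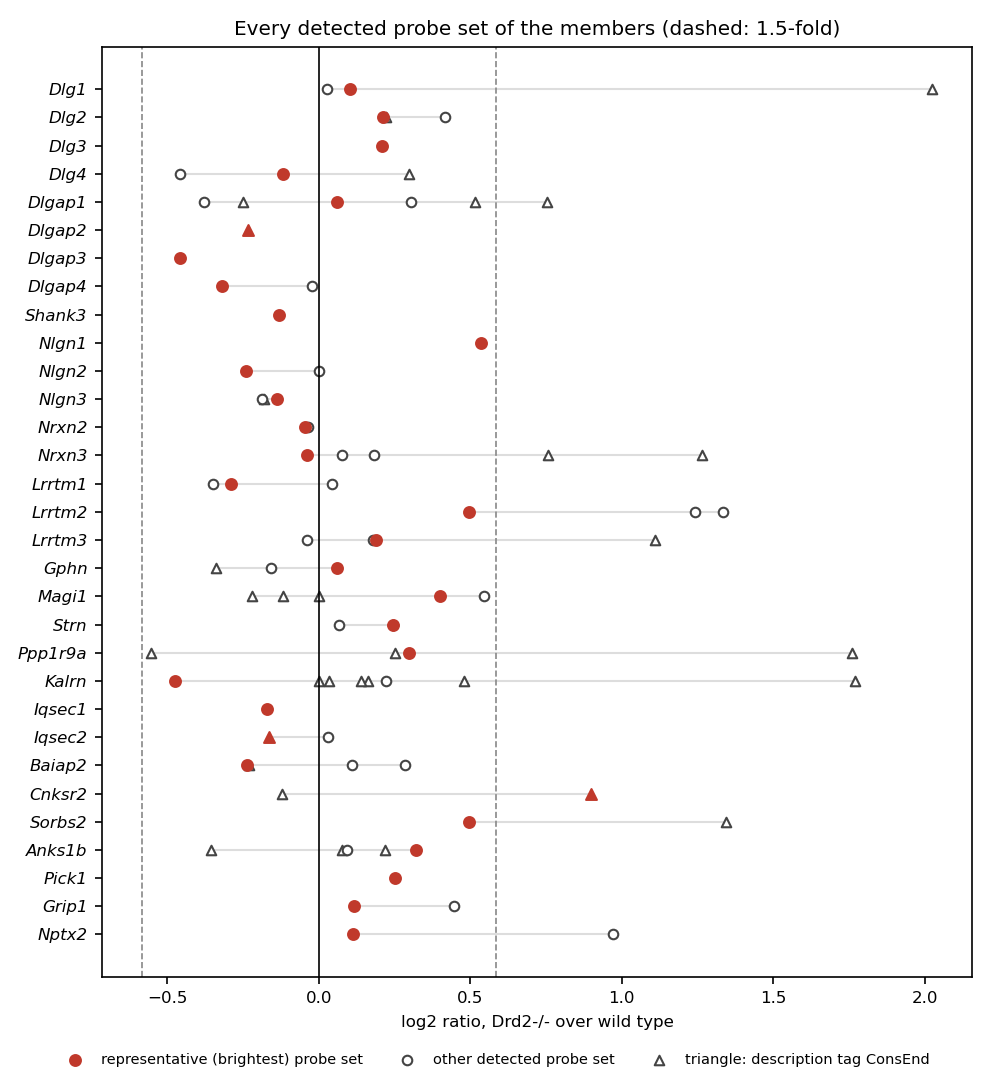
Log2 ratio, Drd2-/- over wild type, of every detected probe set of the 31 detected members, with the brightest probe set of each gene filled, the others open, triangles for probe sets with the description tag ConsEnd and dashed lines at 1.5-fold. Probe sets present on 1 array whose call and signal disagree are drawn at 0. Past the dashed lines lie 12 probe sets of 10 genes, all to the right, and 1 of them, that of Cnksr2, is filled.

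Among the adaptors that bind PSD-95 or its partners, all 3 detected genes read above 0. Cnksr2, a scaffold that connects Ras signalling to the density, read 757.9 units in Drd2-/- and 406.7 units in wild type, 1.86-fold higher (log2 ratio 0.90). In the authors' deposited table that probe set stood at 0.7 (limits of 0.2 and 1.1) and was called increased. The second probe set of Cnksr2 read 323.6 units in Drd2-/- and 351.8 units in wild type (-0.12), so Cnksr2 was past the fold counted by 1 of its 2 probe sets. Sorbs2, an SH3-domain adaptor tied to actin, read 3644.2 units in Drd2-/- and 2585.0 units in wild type (0.50). Its second detected probe set read 309.0 units and present in Drd2-/- against 121.8 units and absent in wild type, 2.54-fold from the signals. Both probe sets of Sorbs2 were called increased in the authors' deposited table, at 0.5 and 1.7. Anks1b, encoding the PSD-95 partner AIDA-1, read 5156.3 units in Drd2-/- and 4131.6 units in wild type (0.32), but its second probe set read 3107.7 against 3975.3 units (-0.36), which the authors' deposited table calls decreased. The other detected probe sets of Anks1b read 0.09, 0.22 and, by a dim one, 0.08. The first of these stands at -0.1 in the authors' deposited table.

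Regulators of small GTPases and of the actin skeleton in spines all read below 0 by their brightest probe sets, and none of the 4 was 1.5-fold apart. Kalrn, a guanine nucleotide exchange factor of dendritic spines, had the lowest ratio of all members: 4769.0 units in Drd2-/- and 6632.6 units in wild type, a log2 ratio of -0.48. The authors' deposited table puts it at -0.3, called unchanged. The 7 other probe sets of Kalrn did not follow it. Of these, 6 read above 0 and 1, present in Drd2-/- alone with a lower signal there, has no direction. The dimmest read 54.6 units and present in Drd2-/- against 16.0 units and absent in wild type, 3.41-fold from the signals. Baiap2, the membrane-bending Rac and Cdc42 effector IRSp53, read 4013.6 units in Drd2-/- and 4735.1 units in wild type (-0.24), with 0.28, 0.11 and -0.23 by the others. Iqsec1 and Iqsec2, exchange factors for Arf6, both read -0.17 by their brightest probe sets. Calls of decreased were given to Baiap2 (-0.4) and Iqsec1 (-0.3) in the authors' deposited table.

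Phosphatase-binding scaffolds leaned the other way. Ppp1r9a, encoding neurabin, which brings protein phosphatase 1 to actin, read 10814.0 units in Drd2-/- and 8803.6 units in wild type (0.30), and 9647.3 against 8098.2 units by a second bright probe set (0.25). A dim probe set of Ppp1r9a read 299.6 units in Drd2-/- and 88.5 units in wild type, 3.39-fold higher, and another 59.6 against 87.5 units (-0.55), the lowest ratio among the members' 88 detected probe sets. The authors' deposited table has that dimmest detected probe set at 0.0 (limits of -0.8 and 0.8). Strn, encoding striatin, a calmodulin-binding subunit of phosphatase 2A complexes, was above 0 by all 3 probe sets, at 0.25, 0.25 and 0.07, and read 6013.4 units in Drd2-/- and 5070.4 units in wild type by the brightest. Calls of increased went to 2 probe sets of Ppp1r9a and 1 of Strn in the authors' deposited table. Magi1, a multi-PDZ scaffold with dim probe sets, read 310.8 units in Drd2-/- and 235.4 units in wild type (0.40), with ratios of its others from -0.22 to 0.55.

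The genes of AMPA receptor handling were level within the fold counted by their brightest probe sets. Pick1, whose PDZ and BAR domains serve receptor internalization, read 614.8 units in Drd2-/- and 516.2 units in wild type (0.25). Grip1, a multi-PDZ protein that binds AMPA receptor tails, read 226.4 units in Drd2-/- and 208.7 units in wild type (0.12). Its direction turns after quantile normalization (-0.10) and in the authors' deposited table (-0.1). A second probe set of Grip1 read 237.2 units in Drd2-/- and 174.0 units in wild type (0.45). For that one the authors' deposited table has 0.4 (limits of -0.1 and 0.9), called unchanged. Nptx2, a secreted pentraxin induced by activity that gathers AMPA receptors from outside, read 528.6 units in Drd2-/- and 488.7 units in wild type (0.11). Its dimmer probe set read 145.0 units in Drd2-/- and 74.0 units in wild type, 1.96-fold higher, while the authors' deposited table has 0.4 (limits of -0.2 and 1.0) and calls it unchanged.

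**Figure D3:**
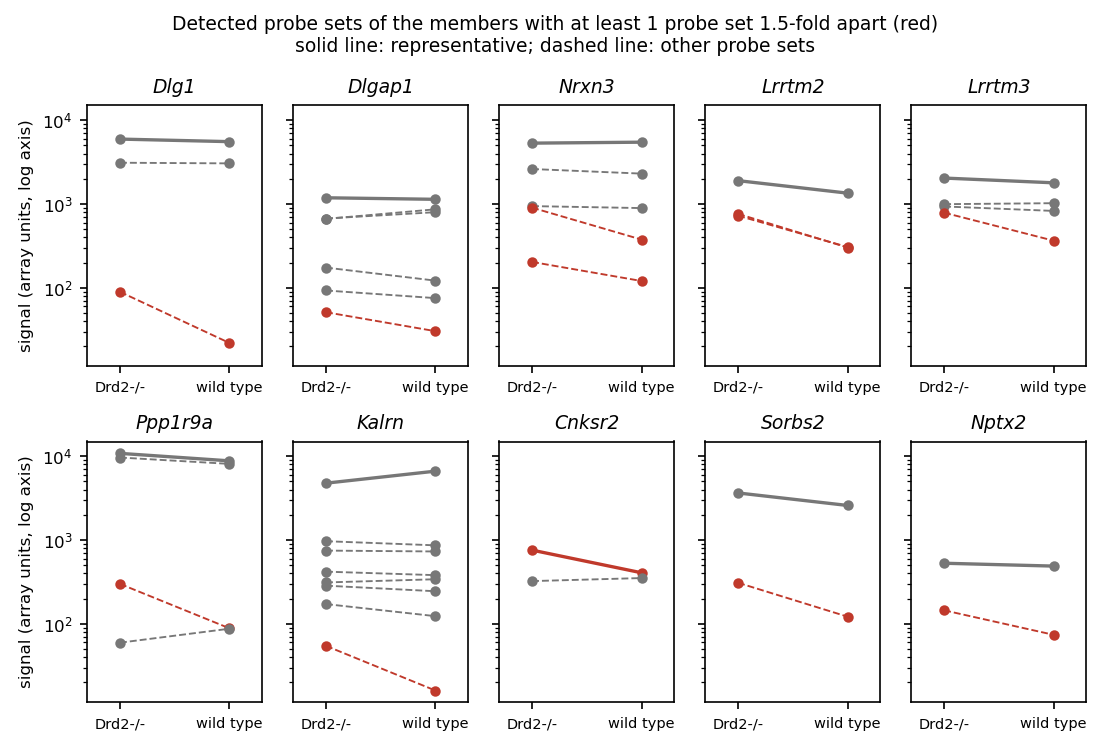
Signals of the detected probe sets of the 10 members with at least 1 probe set 1.5-fold apart, Drd2-/- array left and wild-type array right in each panel, 1 array each, in array units on a log axis. Red lines are probe sets at least 1.5-fold apart, all higher in Drd2-/-, and solid lines are the brightest of each gene. Most red lines lie low in their panels, below nearly level lines of the same gene.

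Reading every probe set gave a different picture from reading the brightest. The 31 genes had 88 detected probe sets, of which 54 read above 0, 31 below and 3 had no direction. At least 1.5-fold higher in Drd2-/- were 12 of the 88 (13.6%), from 10 genes, and none was as much lower. Over all 23484 detected probe sets of named genes, 47.1% read above 0, 14.2% were that much higher and 3.32% that much lower. The share of the members' probe sets past 1.5-fold upward was thus close to that of all genes. The members' probe sets were brighter, though, with a median mean log2 signal of 9.62 against 8.75, and the shares were not matched for signal. Of the 57 probe sets that were not the brightest of their gene 11 were past 1.5-fold upward (19.3%), and of the 31 brightest 1 (3.23%). Over all genes these shares were 19.9% and 9.17%, so a larger share among the dimmer probe sets was general.

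The deposited description of a probe set carries a tier tag on the sequence it was designed from, and 9 of the 12 had the tag ConsEnd. Of the members' 32 detected probe sets with that tag 28.1% were past 1.5-fold upward and 0 downward, against 26.0% and 4.14% over all genes. Of the 56 without it 5.36% were higher and none lower, against 10.3% and 3.06% over all genes. The 3 without the tag were the 2 dimmer probe sets of Lrrtm2 and the dimmer one of Nptx2. Probe sets with the tag were dimmer: their median mean log2 signal was 8.52 among the members, against 10.34 for the members' others. The part of design and of signal in these ratios was not tested. Of the 24 members with several detected probe sets, 13 had them on both sides of 0 (54.2%, against 42.0% over all genes with several), and in 17 the dimmest read higher than the brightest (70.8%, against 61.0%).

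By the calls in the authors' deposited table, 16 of the 88 probe sets were increased in Drd2-/- (18.2%, against 11.8% of all detected probe sets) and 6 decreased (6.82%, against 4.35%). The increased ones came from 11 genes: Lrrtm2 with 3, Kalrn, Ppp1r9a and Sorbs2 with 2 each, and Dlg1, Dlgap1, Nlgn1, Nrxn3, Lrrtm3, Strn and Cnksr2 with 1 each. The decreased ones came from Dlg4 with 2 and Lrrtm1, Iqsec1, Baiap2 and Anks1b with 1 each. Calls count probes of 1 array against 1 other, so a gene with more probe sets has more chances of a call.

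**Figure D4:**
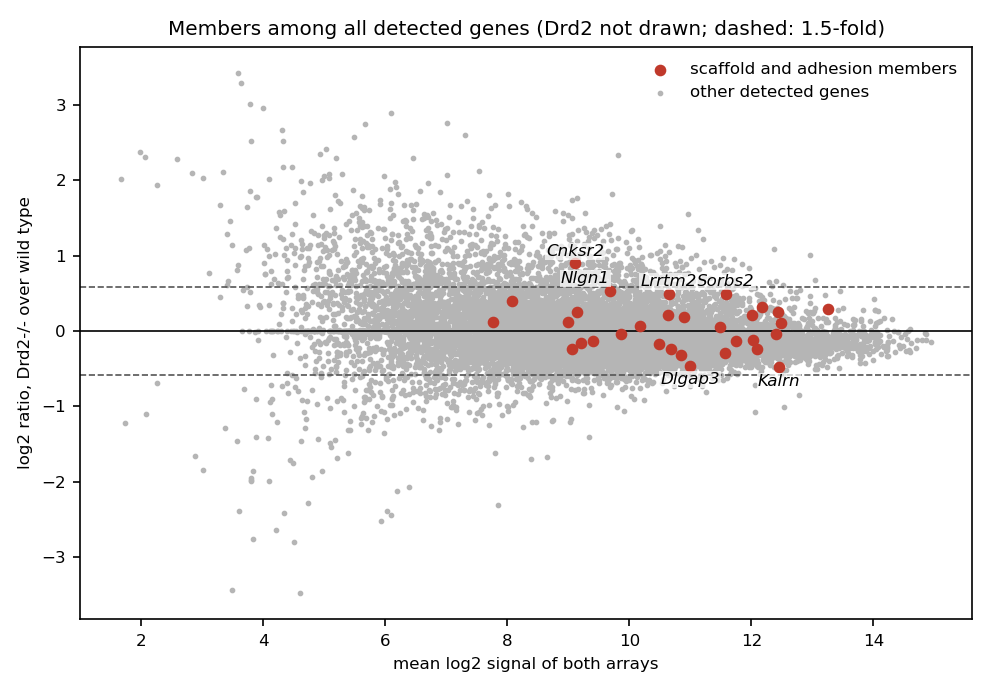
Log2 ratio, Drd2-/- over wild type, against the mean log2 signal of both arrays for the 31 detected members (red) and the other detected genes (grey, Drd2 not drawn), each by its brightest probe set, with dashed lines at 1.5-fold. The members lie between -0.48 (Kalrn) and 0.90 (Cnksr2) in a cloud that narrows as signals grow.

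Other genes of the same compartments were read from a list of 90, of which 80 were measured and 73 detected. Of these, 7 were at least 1.5-fold higher in Drd2-/- and 1 as much lower, 11.0% together against 12.5% of all detected genes, and the median log2 ratio was -0.10. Among 32 detected scaffold and signalling genes, 4 were higher: Lin7c, a PDZ adaptor that pairs with the MAGUK protein CASK, Tnik, Strn3 and Akap5, the anchor of protein kinase A at synapses. Lin7c read 1657.5 units in Drd2-/- and 838.4 units in wild type (log2 ratio 0.98), and its 3 other probe sets read 1.23, 1.17 and 1.22. Of its relatives, Lin7a also read above 0, at 0.50 and 0.59 by its 2 detected probe sets, both called increased in the authors' deposited table (0.8 and 0.5). Lin7b read -0.32 by its brightest probe set and -0.02, 0.10 and 0.68 by the others. Tnik read 0.62 and 3 other probe sets 0.27, 0.90 and 1.72, Strn3 read 0.61 with 0.23 and 1.49 by its others, and Akap5 read 0.60 with 0.34 and 0.72. The authors' deposited table has the representative of Tnik at 0.4 and that of Strn3 at 0.5, both under 1.5-fold. The representative of Tnik has the tag ConsEnd.

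Among 41 detected adhesion genes and synapse organizers, 3 were higher and 1 lower. Il1rapl1, a postsynaptic partner of receptor tyrosine phosphatases, read 350.8 units in Drd2-/- and 134.7 units in wild type (1.38) from 1 probe set. That probe set and the brightest of Slitrk2 have the tag ConsEnd. Of the LAR-type phosphatase genes, Ptprd read 0.34, Ptprs -0.01 and Ptprf -0.445 by their brightest probe sets. Slitrk2 and Slitrk4, postsynaptic adhesion proteins that bind the same phosphatases, read 1.15 and 0.81, and the second detected probe set of Slitrk4 read 1.20, whereas Slitrk1 and Slitrk5 read -0.40 and -0.22. Cbln2, a secreted linker between neurexins and postsynaptic receptors, had a log2 ratio of -0.88. It was absent in Drd2-/- at 78.9 units and present in wild type at 144.9 units. For Cbln2 the authors' deposited table has -0.4 (limits of -0.9 and 0.1), so this ratio is not firm.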

How the data were processed

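Striatal RNA was measured on 1 Affymetrix array per genotype. Signal intensities were deposited on a linear scale, with 1 value for each probe set on each array, scaled by the authors per the file headers. Detection p-values with calls were deposited per the file headers too, as were a log2 Signal Log Ratio with limits and a change call. No software is named in the labels or headers. All 45101 probe sets have the same signals under opposite genotype names in the comparison table (91 also match under the same name), so its detection calls were assigned by signal and its log ratios turned. Marginal change calls counted as unchanged.

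From the signals, log2 ratios of Drd2-/- over wild type were computed (Python 3.11.15, pandas 2.3.3, statsmodels 0.14.6), with a floor of 0.1 units. A gene was represented by its brightest probe set among the 34945 paired with exactly 1 gene, and was detected when that was called present on at least 1 array. For a probe set present on 1 array, the ratio uses the other array's own signal, or that array's lowest present signal where this is higher. Such a ratio rests on a reading not called present and is not a firm bound. It was set to 0 where call and signal disagree. The sums and medians over lists are descriptions: 1 array per genotype allows no test, and the number of arrays limits precision. The computation was tested on simulated data, with known folds put into the wild-type signals without noise and with equal calls on both arrays. This checks the arithmetic alone. It gives no error of the counts and does not cover probe sets present on 1 array. Alternatives were 3 other scalings, 32 units added, other detection filters, the median over probe sets, the authors' log ratio, 2-fold, and, added after the data were seen, leaving out ConsEnd probe sets. Named were all members, Drd2, marker genes, and listed genes at least 1.5-fold apart. Lin7a, Lin7b, Ptprd, Ptprs, Ptprf, Slitrk1, Slitrk5 and the 3 catenin genes were chosen after their values were seen. Members and lists were chosen with earlier results of these data known.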

Additional observations from a re-analysis of the deposited data

How the results depend on the processing

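Cnksr2 alone was past 1.5-fold under median centring, quantile normalization, intensity-dependent centring and 32 added units. Both other detection filters gave the same, but could not change the result for the 31 detected members, all present on both arrays. Without a filter Shank1 alone was added (-0.10). The count of members past 1.5-fold was 2 with the authors' log ratio (Cnksr2 and Nlgn1) and 2 with the median over probe sets (Lrrtm2 and Sorbs2). It was 0 at 2-fold, where the threshold itself is stricter, and 0 without ConsEnd probe sets, which removes both probe sets of Cnksr2. No member was 1.5-fold lower in any of the 10 alternatives. The members' median ran from 0.00 with the authors' log ratio to 0.12 after intensity-dependent centring. Without ConsEnd probe sets 35 of 56 probe sets read above 0 (62.5%, against 43.0% over all genes). Of the other scaffold and adhesion genes 5 were past 1.5-fold after median centring, which lowers every log2 ratio by 0.04, and 2 at 2-fold. With the median over probe sets 9 of them were higher and 1 lower. Without a filter on detection 8 of 80 were higher and 2 lower. Of the 31 members, 21 kept the sign of their ratio under every alternative that gave a value, 12 above 0 and 9 below. Ratios of the other 10, Dlg3, Dlgap1, Nlgn3, Nrxn2, Nrxn3, Gphn, Magi1, Kalrn, Iqsec2 and Grip1, reached or crossed 0 in at least 1 alternative, that of Kalrn running from -0.52 to 0.15. Some alternatives could not turn a sign. The detection filters keep the ratio of each detected member, and 32 units added to both signals keep their order. Leaving out ConsEnd probe sets changes only genes whose brightest probe set has the tag. For a gene with 1 detected probe set, the median over probe sets is that same ratio. The count of 21 thus rests mainly on the other scalings and the authors' log ratio. Probe sets near background limit the dim ratios. No paired analysis was possible because each genotype has 1 array.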

Other observations

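The 3 LRRTM genes each lie within an alpha-catenin gene in the RefSeq annotation of GRCm38.p6, Lrrtm1 in Ctnna2, Lrrtm2 in Ctnna1 and Lrrtm3 in Ctnna3. Ctnna1 read 2931.6 units in Drd2-/- and 3617.2 units in wild type (log2 ratio -0.30), and -0.14 by its other detected probe set, whereas Lrrtm2 inside it was above 0 by all 3. Ctnna2 read 1526.2 units in Drd2-/- and 1175.6 units in wild type (0.38), where Lrrtm1 read -0.29. Ctnna3 was present in Drd2-/- alone, at 72.9 units against 31.4 units in wild type, and the authors' deposited table gives it 0.4 (limits of -0.2 and 0.9), unchanged. Lrrtm3 also read above 0 (0.19). A probe set of Ctnna1 that was present on neither array read 69.3 units in Drd2-/- and 2.9 units in wild type, and the authors' deposited table calls it increased. These genes were looked at after the LRRTM values were seen.

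The neuronal pentraxin receptor gene Nptxr shares its 3 probe sets with Npcd in the platform annotation. The brightest read 723.1 units in Drd2-/- and 942.6 units in wild type (-0.38), and the authors' deposited table calls it decreased at -0.5 (limits of -0.6 and -0.3). The other 2 read 0.04 and -0.13. Which of the genes these signals come from cannot be told apart.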
